A study of Mus musculus with 16 samples.

Results

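Collagens are the fibrous and network-forming proteins of the extracellular matrix, and each collagen molecule is built from 1 to 3 kinds of chain, with 1 gene for each kind. The collagen chain genes of the mouse were taken as the genes whose symbol is Col, a type number, the letter a and a chain number. There were 44 of them among the 39328 genes in the table. They were sorted into 11 fibrillar genes, 6 basement membrane genes, 6 beaded filament genes, 9 fibril-associated genes, 3 genes of the type VIII and X networks, 3 genes of the basement membrane zone, 4 transmembrane genes and 2 others.

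The libraries were made from total RNA of the colon of adult wild-type mice of the outbred ICR stock. The mice had been born vaginally (VD) or by cesarean section (CS). For 8 days they drank normal water (CON) or a 3% solution of dextran sulfate sodium (DSS), the sulfated polymer used to injure the colon lining. This gave 4 groups of 4 libraries, CON_VD, CON_CS, DSS_VD and DSS_CS, and the series title names the susceptibility to colitis after cesarean birth. The labels give no sex, exact age or litter and do not say that the libraries of a group are separate animals, so the p-values measure the spread between these samples, which may be partly technical. The authors deposited FPKM, in which the fragments of a gene are divided by its length and by the size of the library. They allow levels to be compared between genes. Depth is unknown, and an FPKM is a share of each library's RNA.

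Collagen chains wind into triple helices in the endoplasmic reticulum, where prolines and lysines are hydroxylated, and are then secreted. Fibrillar collagens, chiefly types I, III and V, are trimmed outside the cell and packed into cross-linked fibrils that give the gut wall its strength. Type IV chains form the sheet of basement membranes under the epithelium, around vessels and around muscle cells, and type VI chains form beaded filaments that link cells to both structures. In the gut, fibroblasts make most fibrillar and type VI collagen, while endothelial, muscle and epithelial cells also make type IV.

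The libraries carried the markers of colon. The 10 colon epithelium markers, among them Epcam and Krt20, were all detected in each group. Their summed FPKM was 5582 to 6898 in CON_VD and 6202 to 6962 in CON_CS, against 2702 to 5803 in DSS_VD and 907 to 2794 in DSS_CS. A list of 5 seminal vesicle and prostate genes, which should be at or near 0 in colon, summed to 192 FPKM in CON_CS replicate 1, 177 in DSS_CS replicate 3 and 1617 in DSS_CS replicate 4, and to at most 3.94 in the other 13 libraries. Results are therefore also given without these 3 libraries where that changes them. Fat cell genes summed to 65.1 FPKM in CON_VD replicate 3 and 135 in DSS_CS replicate 4, against 0.00999 to 32.9 elsewhere. Hemoglobin and red cell genes summed to 28.4 to 332 FPKM on water, 241 to 975 in DSS_VD and 903 to 9731 in DSS_CS.

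On water, collagen genes made up 0.0773 ± 0.0101% of the summed FPKM in CON_VD and 0.0953 ± 0.0169% in CON_CS (mean ± SD, n = 4 each). Under DSS the share was 0.292 ± 0.0897% in DSS_VD and 0.613 ± 0.101% in DSS_CS. The lowest DSS_VD library, replicate 2, was at 0.160%, above the highest library on water at 0.114%, and the lowest DSS_CS library at 0.480% was above the highest DSS_VD library at 0.357%. Col3a1, which forms the fine reticular fibrils of the gut wall and vessels, was the collagen gene of highest mean level over the 16 libraries. It ranked between 435 and 754 among all genes on water, between 82 and 293 in DSS_VD and between 39 and 55 in DSS_CS.

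**Figure D1:**
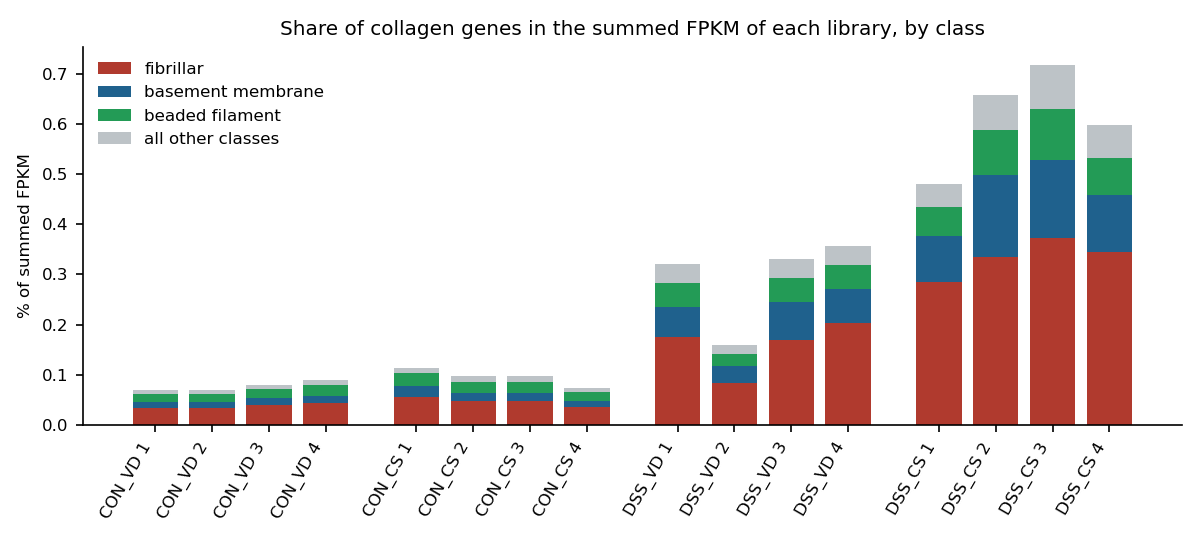
Bars give the share of all collagen chain genes in the summed FPKM of each of the 16 libraries, in percent, split into the fibrillar, basement membrane and beaded filament classes and all other classes. Bars on water reach at most 0.114%, those of DSS_VD lie between 0.160 and 0.357%, and those of DSS_CS between 0.480 and 0.717%.

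The makeup of the collagen RNA also differed between water and DSS. Beaded filament genes held 22.8 to 25.5% of the collagen FPKM in the 8 libraries on water and 12.02 to 15.01% in the 8 libraries under DSS. Fibrillar genes held 48.0 to 50.3% on water and 50.8 to 59.2% under DSS, and basement membrane genes held 15.7 to 17.7% on water and 18.6 to 24.8% under DSS. The ranges on water and under DSS did not overlap for any of the 3 classes. These shares are given as a description, with no test.

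Some collagen genes lie side by side on the chromosomes. Col4a1 (chr8:11198423-11312826, GRCm38, minus strand) and Col4a2 (chr8:11312805-11449287, plus strand), whose products join into the same type IV trimer, start head to head, and the GENCODE M21 annotation has 22 exonic bases of the 2 genes in common. The labels do not say that strand was recorded, and without it reads in that overlap cannot be assigned to 1 of them. RefSeq promoter windows, 250 bases before to 50 bases after a start on GRCm38.p6, are shown for this pair because the same DNA stretch serves both genes and both rose together under DSS. Each window is written 5′ to 3′ on the strand of its gene, in lower case, with the letters CCAAT (or ATTGG, the same letters on the other strand) in capitals. The window of Col4a1 is chr8:11312777-11313076 on the minus strand and that of Col4a2 is chr8:11312555-11312854 on the plus strand.
Col4a1: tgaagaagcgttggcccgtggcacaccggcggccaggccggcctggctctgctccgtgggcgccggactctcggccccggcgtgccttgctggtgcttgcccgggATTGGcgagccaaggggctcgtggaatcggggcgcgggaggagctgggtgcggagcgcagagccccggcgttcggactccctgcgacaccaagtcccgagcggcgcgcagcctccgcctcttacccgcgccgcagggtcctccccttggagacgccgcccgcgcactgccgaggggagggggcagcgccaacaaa
Col4a2: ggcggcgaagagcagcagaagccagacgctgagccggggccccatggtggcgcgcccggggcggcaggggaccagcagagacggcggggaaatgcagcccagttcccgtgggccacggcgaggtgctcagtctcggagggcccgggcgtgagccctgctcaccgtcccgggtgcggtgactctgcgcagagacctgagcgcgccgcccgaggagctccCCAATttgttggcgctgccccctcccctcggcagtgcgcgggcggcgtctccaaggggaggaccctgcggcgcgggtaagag
The windows share 78 bases, chr8:11312777-11312854, which read as the last bases of both windows on opposite strands. Each window holds CCAAT letters 1 time, at position -145 from the start in Col4a1 and at -32 in Col4a2. Those of Col4a1 lie outside the shared stretch, and those of Col4a2 end on its first base.

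A pair of fibrillar genes, the most abundant of the class and a chain of type I, is shown beside them. Col3a1 (chr1:45311538-45349706, plus strand) has its window at chr1:45311288-45311587, and Col1a2 (chr6:4504814-4541544, plus strand), the α2 chain of type I collagen, has its RefSeq window at chr6:4505368-4505667, downstream of the GENCODE start of the gene.
Col3a1: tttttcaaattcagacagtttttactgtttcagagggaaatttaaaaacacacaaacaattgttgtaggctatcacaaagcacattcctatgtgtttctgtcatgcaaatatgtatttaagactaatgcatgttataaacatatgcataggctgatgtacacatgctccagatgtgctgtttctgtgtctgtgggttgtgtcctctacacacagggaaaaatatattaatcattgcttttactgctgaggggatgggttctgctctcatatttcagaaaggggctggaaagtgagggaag
Col1a2: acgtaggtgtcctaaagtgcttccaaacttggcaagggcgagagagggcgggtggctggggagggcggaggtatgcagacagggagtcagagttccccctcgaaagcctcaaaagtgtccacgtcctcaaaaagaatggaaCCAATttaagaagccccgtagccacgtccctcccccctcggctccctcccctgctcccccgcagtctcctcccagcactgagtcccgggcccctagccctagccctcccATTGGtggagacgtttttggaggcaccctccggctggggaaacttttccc
The Col3a1 window held no CCAAT and 1 TATAAA, at -117, and the Col1a2 window held CCAAT letters at -109 and at 1. Windows were at hand for 35 of the 44 collagen genes, 38 windows in all. The motifs searched, on both strands, were 4, and none contains the letters of another. They were the CCAAT box with the letters of its name, the TATA box written TATAAA, the GC box written GGGCGG and the AP-1 element written TGANTCA. The letters CCAAT stood in 34.2% of the collagen windows and 37.4% of all 32851 windows, and TATAAA in 13.2% and 13.6%. GGGCGG stood in 60.5% of the collagen windows and 35.7% of all windows, and TGANTCA in 2.63% and 7.81%. A match of letters is not a binding site, and these shares were not tested.

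DSS raised most collagen genes that were measured well enough to test, in mice of both births. To be tested, a gene had to reach an FPKM of 1 in 4 or more libraries of the fit, and it was called when limma's Benjamini-Hochberg adjusted p over all tested genes was under 0.05. In VD mice 18 of 23 tested collagen genes rose and none fell under DSS, where 24% of all 13933 tested genes rose and 17% fell. In CS mice 21 of 25 rose and none fell, where 34.4% of 14372 tested genes rose and 25.9% fell. The median log2 difference of the tested collagen genes was 1.20 in VD mice, against 0.06 over all tested genes, and 1.81 in CS mice, against 0.06. Each of the 18 and 21 genes called had DSS libraries that were all above the water libraries of the same birth, and no other tested collagen gene did. Over all tested genes, 22.2% and 32.9% were apart in that direction. Without the libraries with prostate genes, 18 of the 21 collagen genes were still called in CS mice. Over all 12324 genes then tested, 22.7% were called higher and 19.6% lower.

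The filter admits a gene that is high in 1 group alone, so counts over tested genes are not counts over all 44. Among the genes called, Col28a1 in both births and Col23a1 in CS mice had no water library of that birth at FPKM 1. They passed the filter only through their DSS libraries. Col27a1 in both births, Col8a1 in VD mice and Col6a5 in CS mice had too few water libraries at FPKM 1 and also needed their DSS libraries to pass. The remaining genes were too low: 15 collagen genes were under FPKM 1 in every library (Col2a1, Col4a3, Col4a4, Col6a6, Col9a1, Col9a2, Col9a3, Col10a1, Col11a1, Col17a1, Col19a1, Col22a1, Col24a1, Col25a1 and Col26a1), among them the main cartilage collagens. The table lists 37 of the 44 above 0 in every library. The highest group mean among the 15 was 0.714 FPKM, for Col9a2 in DSS_CS. With no filter all 44 were tested, and 21 were called higher and 1 lower in VD mice, where 12.6% of all 32595 genes were called higher and 7.38% lower. In CS mice 29 were called higher and 1 lower, where 20.3% of all 32857 genes were called higher and 13.1% lower. Differences are on the log2(FPKM + 1) scale, which understates those of low genes. Other scalings between libraries moved the median over all genes by about 0.1 or more. For DSS in VD mice it went from 0.06 as deposited to -0.04 with median-of-ratios scaling and -0.09 with quantile normalization, and for DSS in CS mice from 0.06 to -0.06 and -0.10. Calls over all genes then split into 2896 higher and 3044 lower (median-of-ratios) or 2676 and 3664 (quantile) in VD mice, in place of 3340 and 2364. In CS mice they split into 4131 and 4692, or 3933 and 5163, in place of 4937 and 3729. All 18 collagen genes called in VD mice were called with median-of-ratios scaling and 17 of them with quantile normalization, and all 21 in CS mice with both.

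**Figure D2:**
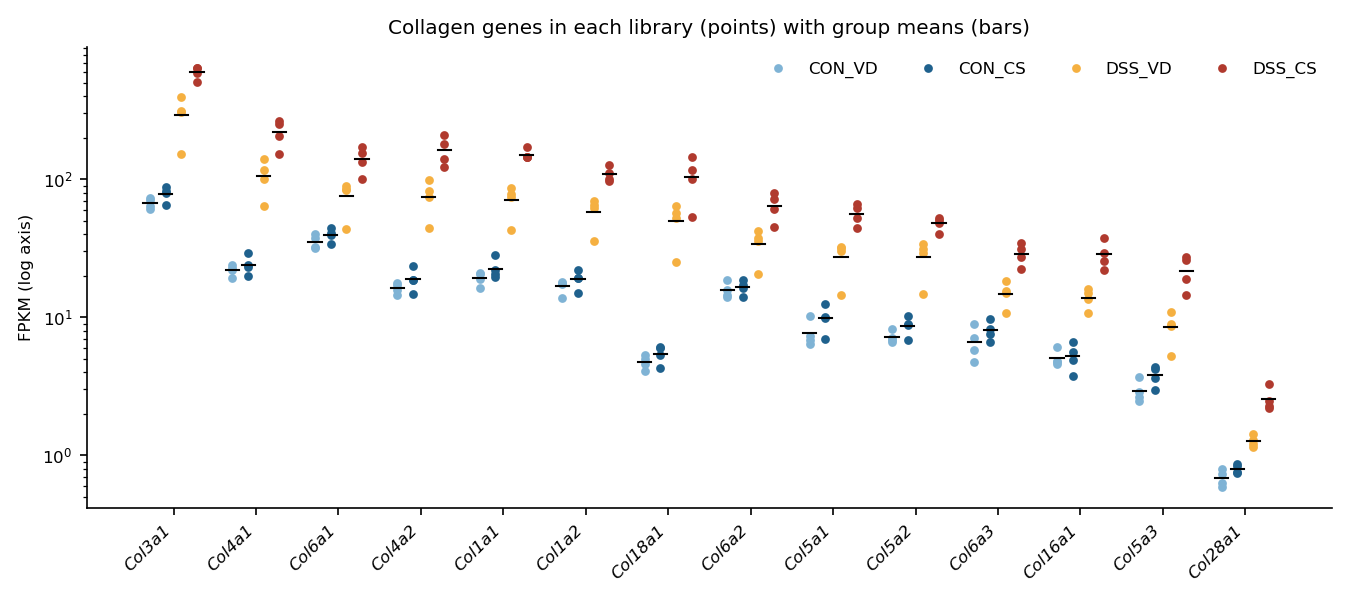
Points give the FPKM (log axis) of 14 collagen genes in each library, in the order of their mean over the 16 libraries, and bars give group means. For Col3a1 the group means go from 67.3 and 78.7 FPKM on water to 292 in DSS_VD and 595 in DSS_CS, and replicate 2 is the lowest DSS_VD point in each of them but Col28a1.

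The fibrillar genes rose as a whole: all 7 that were tested were called in both births, with a median log2 difference of 1.70 in VD mice and 2.40 in CS mice. Col3a1 was at 63.9, 61.4, 72.8 and 71.3 FPKM in CON_VD, 87.8, 79.8, 81.7 and 65.5 in CON_CS, 312, 151, 307 and 397 in DSS_VD and 509.6, 593, 639 and 640.0 in DSS_CS. Every library under DSS was above every library on water, and within DSS_VD replicate 2 was far below the other 3. The mean rose 4.34 times in VD mice (log2 difference 2.02 ± 0.27 SE, limma adjusted p = 0.000386) and 7.56 times in CS mice (2.91 ± 0.13, adjusted p = 5.41e-07).

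Type I collagen, the main load-bearing fibril, is built from the chains of Col1a1 (chr11:94936224-94953042, plus strand) and Col1a2. Col1a1 was at 19.1, 16.4, 20.7 and 20.997 FPKM in CON_VD, 28.2, 20.5, 21.9 and 19.6 in CON_CS, 78.3, 43.0, 85.8 and 74.8 in DSS_VD and 144, 144, 144 and 170.1 in DSS_CS. Col1a2 was at 17.6, 13.7, 17.5 and 18.1 FPKM in CON_VD, 22.1, 19.3, 19.1 and 15.1 in CON_CS, 65.1, 35.8, 69.3 and 62.2 in DSS_VD and 96.6, 100.1, 112 and 127 in DSS_CS. Neither gene's DSS libraries overlapped those on water, and DSS_CS replicate 4 was the highest of both. Col1a1 rose 3.65 times in VD mice (log2 difference 1.78 ± 0.21, limma adjusted p = 0.000229) and 6.69 times in CS mice (2.70 ± 0.13, adjusted p = 6.72e-07). Col1a2 rose 3.48 and 5.76 times, with log2 differences of 1.70 ± 0.21 and 2.47 ± 0.13.

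Type V collagen sits in the core of type I fibrils and limits their width. Col5a1 was at 6.45, 6.86, 7.31 and 10.2 FPKM in CON_VD, 12.6, 10.0, 9.94 and 6.998 in CON_CS, 30.4, 14.5, 31.8 and 32.4 in DSS_VD and 44.3, 61.4, 66.2 and 52.3 in DSS_CS. Col5a2 was at 6.81, 6.62, 7.10 and 8.20 FPKM in CON_VD, 10.2, 8.90, 8.77 and 6.86 in CON_CS, 31.0, 14.7, 29.3 and 33.7 in DSS_VD and 40.1, 50.8, 52.1 and 48.6 in DSS_CS. Col5a3 was at 2.46, 2.86, 2.65 and 3.69 FPKM in CON_VD, 4.38, 4.21, 3.61 and 2.98 in CON_CS, 10.8, 5.26, 8.69 and 8.95 in DSS_VD and 14.4, 27.1, 25.9 and 18.8 in DSS_CS. In all 3 genes each DSS library was above each water library of the same birth, and DSS_VD replicate 2 was the lowest of the DSS libraries. The log2 differences in VD mice were 1.65 ± 0.26 for Col5a1, 1.72 ± 0.23 for Col5a2 and 1.24 ± 0.19 for Col5a3. In CS mice they were 2.40 ± 0.18, 2.34 ± 0.13 and 2.20 ± 0.20, and the limma adjusted p of the 6 tests lay between 1.44e-06 and 0.000931. Col5a2 (chr1:45374321-45503282, minus strand) and Col3a1 are neighbours, tail to tail with 24614 bases between them.

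Col27a1, a short-helix fibrillar gene known mainly from cartilage, was the low member of the class, at 0.889 ± 0.168 FPKM in CON_VD, 1.05 ± 0.280 in CON_CS, 2.52 ± 0.654 in DSS_VD and 3.77 ± 0.276 in DSS_CS (mean ± SD, n = 4). It rose too, with log2 differences of 0.88 ± 0.16 and 1.23 ± 0.11, though in both births it passed the filter only with its DSS libraries. Col11a2, which pairs with cartilage fibrils, reached at most 1.14 FPKM in any library and was not tested.

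The basement membrane genes did not move together. The α1 and α2 chains, found in basement membranes everywhere in the body, rose. Of the α5 and α6 chains, used in specialised basement membranes such as those around smooth muscle, Col4a5 was tested in both births and Col4a6 in CS mice, and neither was called. Col4a1 was at 21.9, 19.2, 23.9 and 22.9 FPKM in CON_VD, 29.4, 22.9, 24.0 and 20.0 in CON_CS, 101, 63.8, 140.2 and 116 in DSS_VD and 154, 264, 249.7 and 206 in DSS_CS. Col4a2 was at 15.9, 14.4, 17.8 and 17.3 FPKM in CON_VD, 23.5, 18.6, 18.6 and 14.7 in CON_CS, 74.1, 44.6, 98.6 and 82.7 in DSS_VD and 122, 210.5, 179 and 140.3 in DSS_CS. For both genes the lowest library under DSS, DSS_VD replicate 2, was above the highest on water, CON_CS replicate 1. Col4a1 rose 4.79 times in VD mice (log2 difference 2.16 ± 0.22, limma adjusted p = 0.000126) and 9.06 times in CS mice (3.11 ± 0.19, adjusted p = 2.03e-06). The values of its head-to-head partner Col4a2 were close, 4.59 and 8.66 times, with log2 differences of 2.08 ± 0.22 and 3.03 ± 0.19.

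Col4a5 was at 3.14, 3.40, 3.38 and 2.47 FPKM in CON_VD, 4.06, 3.53, 3.47 and 2.50 in CON_CS, 3.63, 1.84, 2.69 and 2.13 in DSS_VD and 2.87, 4.19, 4.67 and 4.28 in DSS_CS. The groups overlapped, and the log2 difference under DSS was -0.22 ± 0.16 in VD mice (limma adjusted p = 0.322) and 0.19 ± 0.15 in CS mice (adjusted p = 0.318). With quantile normalization the VD value was -0.42 and called lower (adjusted p = 0.0487), and the CS value turned to -0.04. Col4a6, which starts head to head with Col4a5 on the X chromosome 1308 bases away, was at 1.05 ± 0.237 FPKM in CON_VD, 1.499 ± 0.636 in CON_CS, 0.584 ± 0.223 in DSS_VD and 1.36 ± 1.27 in DSS_CS. Its highest library by far, at 3.22 FPKM, was DSS_CS replicate 4, which is also the library of highest prostate and fat cell genes. It was tested for DSS in CS mice, at a log2 difference of -0.18 ± 0.33 (limma adjusted p = 0.663). The third pair of the class, Col4a3 and Col4a4, was under FPKM 1 throughout.

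**Figure D3:**
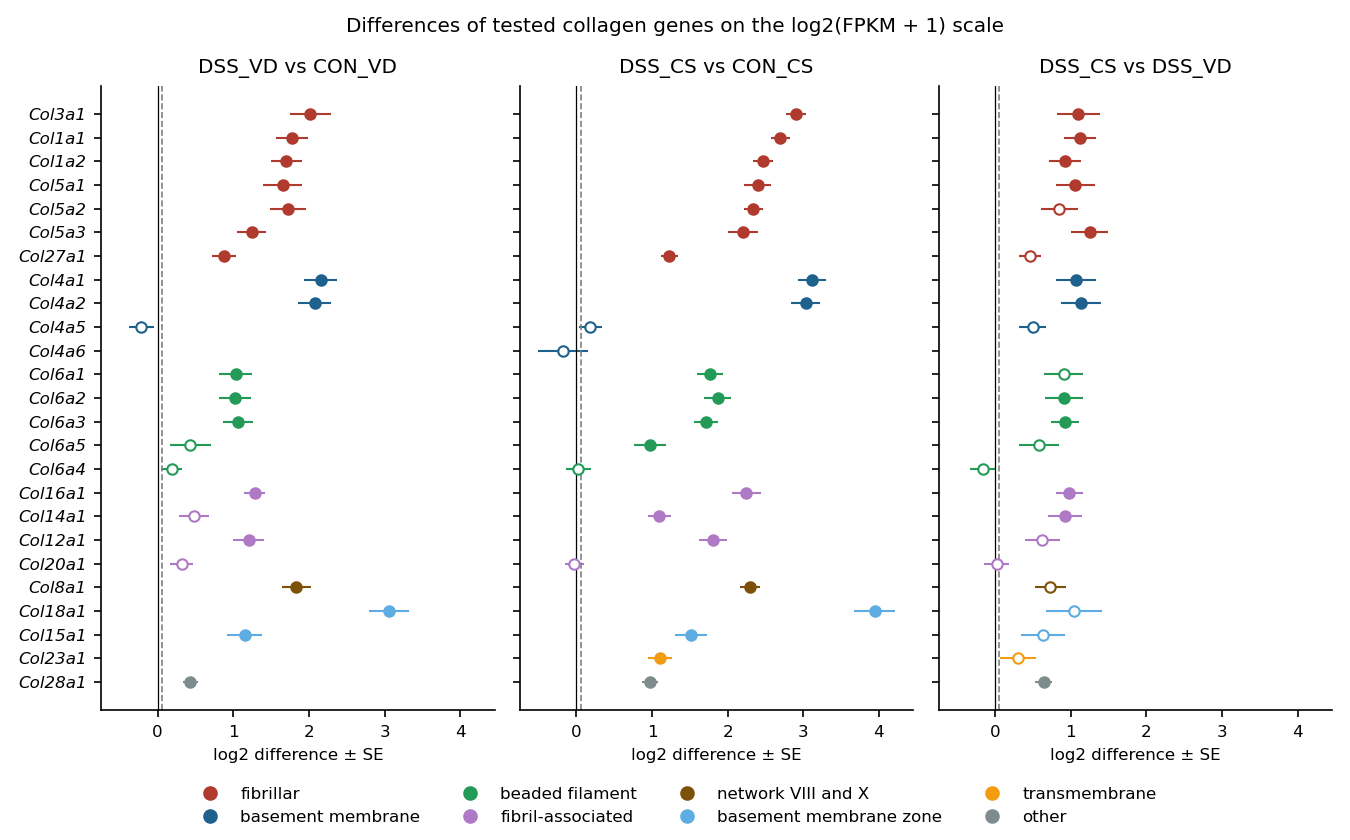
Points give the log2 difference of each tested collagen gene on the log2(FPKM + 1) scale in 3 comparisons, with bars of 1 SE, coloured by class. Filled points were called by limma and open points were not, and the dashed line marks the median of all tested genes. The fibrillar genes and Col4a1 and Col4a2 lie right of the line in each panel, while Col4a5, Col6a4 and Col20a1 are open throughout.

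The basement membrane zone held the largest rise of any tested collagen gene. Col18a1 (chr10:77052178-77166548, minus strand) encodes a proteoglycan-like collagen of epithelial and vessel basement membranes, whose tail is released as endostatin. Col18a1 was at 4.57, 4.06, 5.01 and 5.34 FPKM in CON_VD, 5.97, 6.13, 5.35 and 4.27 in CON_CS, 52.2, 25.03, 64.1 and 56.8 in DSS_VD and 53.7, 99.7, 145 and 116 in DSS_CS. The water libraries were at 4.06 to 6.13 FPKM and the DSS libraries at 25.03 to 144.9, with DSS_VD replicate 2 the lowest of them. The mean rose 10.4 times in VD mice (log2 difference 3.06 ± 0.26, limma adjusted p = 6.08e-05) and 19.1 times in CS mice (3.95 ± 0.27, adjusted p = 4.32e-06). Col15a1, its relative at the outer face of vessel and muscle basement membranes, rose less, with log2 differences of 1.15 ± 0.23 and 1.52 ± 0.21. Col7a1, the anchoring fibril collagen of stratified epithelia, was low, at 0.199 ± 0.0399 FPKM in CON_VD and 0.223 ± 0.0785 in CON_CS, against 0.545 ± 0.203 in DSS_VD and 1.18 ± 0.294 in DSS_CS. It did not pass the filter, and without one it was called higher in VD mice (0.36, limma adjusted p = 0.0398) and in CS mice (0.82, adjusted p = 0.00103).

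Of the 5 beaded filament genes tested, 3 rose in VD mice and 4 in CS mice, with a median log2 difference of 1.02 and 1.72, below the medians of the fibrillar class. Col6a1 was at 31.6, 32.0, 37.3 and 40.2 FPKM in CON_VD, 44.7, 40.8, 39.7 and 33.8 in CON_CS, 84.1, 43.9, 89.1 and 84.8 in DSS_VD and 101, 156, 170.1 and 133 in DSS_CS. Col6a2 was at 14.5, 14.1, 15.8 and 18.6 FPKM in CON_VD, 18.8, 17.0, 16.3 and 14.1 in CON_CS, 37.2, 20.4, 42.5 and 36.0 in DSS_VD and 44.8, 71.6, 79.8 and 60.7 in DSS_CS. Col6a3 was at 5.81, 4.72, 7.03 and 8.98 FPKM in CON_VD, 9.75, 7.62, 8.26 and 6.58 in CON_CS, 18.2, 10.7, 14.9 and 15.5 in DSS_VD and 22.3, 34.6, 31.2 and 27.3 in DSS_CS. For the 3 chains of the common type VI filament, each DSS library was above each water library of its own birth, though in Col6a1 DSS_VD replicate 2, at 43.9 FPKM, lay below CON_CS replicate 1. On water, Col6a1 was the second highest collagen gene after Col3a1, above Col1a1 and Col4a1, and in DSS_CS its mean was below theirs. The log2 differences in VD mice were 1.03 ± 0.22, 1.02 ± 0.21 and 1.06 ± 0.20 in the order of the chains, with limma adjusted p of 0.00531, 0.00423 and 0.00268. In CS mice they were 1.77 ± 0.17, 1.87 ± 0.17 and 1.72 ± 0.15, with adjusted p of 2.68e-05, 2.39e-05 and 1.86e-05.

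Col6a4 and Col6a5 encode alternative partners of the α1 and α2 chains. Col6a5 was at 1.34 ± 0.599 FPKM in CON_VD and 2.21 ± 0.971 in DSS_VD, and was not called there (log2 difference 0.43 ± 0.27, limma adjusted p = 0.241). In CS mice it rose from 1.39 ± 0.623 to 3.68 ± 1.04 FPKM (0.97 ± 0.21, adjusted p = 0.00319). Col6a4 was at 0.986 to 2.20 FPKM in the 16 libraries and was called in neither birth (0.19 ± 0.14 and 0.02 ± 0.17). It shares 127 and 162 exonic bases with 2 overlapping opposite-strand genes, and without strand, reads in those bases cannot be assigned to 1 gene.

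Fibril-associated collagens coat or bridge fibrils. Col16a1 was at 4.79, 4.59, 4.78 and 6.14 FPKM in CON_VD, 6.67, 5.57, 4.89 and 3.75 in CON_CS, 13.7, 10.7, 15.1 and 15.98 in DSS_VD and 29.4, 37.8, 25.5 and 22.0 in DSS_CS. Its DSS libraries were all above its water libraries, and all 4 of DSS_CS were above all 4 of DSS_VD. Col16a1 rose 2.73 times in VD mice (log2 difference 1.28 ± 0.14, limma adjusted p = 0.00017) and 5.48 times in CS mice (2.25 ± 0.19, adjusted p = 1.36e-05). Col12a1, which decorates type I fibrils under tension, rose with log2 differences of 1.20 ± 0.21 and 1.81 ± 0.18. Its relative Col14a1 was called in CS mice (1.10 ± 0.15) and not in VD mice (0.48 ± 0.20, limma adjusted p = 0.0878), and the difference between the births was not called (adjusted p = 0.13). Col20a1 was called in neither (0.32 ± 0.15 and -0.02 ± 0.12), and the annotation has 79 of its exonic bases under another gene of the same strand.

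The type VIII pair parted. Col8a1, a chain of the hexagonal networks under endothelium, was at 0.995 ± 0.141 FPKM in CON_VD, 1.41 ± 0.272 in CON_CS, 6.30 ± 1.93 in DSS_VD and 10.9 ± 1.91 in DSS_CS, and rose by log2 differences of 1.83 ± 0.19 and 2.30 ± 0.13. Col8a2 was at 0.808, 0.791, 0.954 and 1.24 FPKM in CON_VD, 0.769, 0.824, 1.12 and 0.789 in CON_CS, 0.368, 0.194, 0.361 and 0.207 in DSS_VD and 0.276, 0.487, 0.434 and 0.358 in DSS_CS. Every DSS library of Col8a2 was below every water library. It did not pass the filter, and without one it was called lower in VD mice (-0.60, limma adjusted p = 0.00492) and in CS mice (-0.43, adjusted p = 0.00629). It was the 1 collagen gene called lower in that setting.

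Of the transmembrane collagens, Col23a1 was tested in CS mice, where it rose from 0.587 ± 0.152 to 2.46 ± 0.683 FPKM (log2 difference 1.11 ± 0.15). It was under FPKM 1 in CON_CS and passed the filter only through DSS_CS, so being tested depended on the rise. Col13a1, known from muscle junctions and adhesion sites, had group means of 0.358 and 0.276 FPKM on water and 0.786 and 1.08 under DSS, below the filter. Col28a1 was at 0.732, 0.792, 0.587 and 0.626 FPKM in CON_VD, 0.763, 0.832, 0.862 and 0.746 in CON_CS, 1.14, 1.21, 1.43 and 1.30 in DSS_VD and 2.20, 3.29, 2.28 and 2.48 in DSS_CS. Col28a1, which in mouse is known from peripheral nerve, had every DSS_VD library above every water library and every DSS_CS library above every DSS_VD library. It rose by log2 differences of 0.43 ± 0.10 and 0.97 ± 0.11, though in VD mice the value with quantile normalization was 0.15 and not called. All its water libraries were under FPKM 1, so it too passed the filter only through libraries under DSS.

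Ratios between 2 genes within a library do not depend on how the library was scaled, apart from the added 1. A set of 5 log2 ratios was compared in 4 comparisons with exact two-sided permutation tests, whose smallest p with 4 against 4 libraries is 0.0286. None of the 20 passed after Benjamini-Hochberg adjustment, and the lowest adjusted p was 0.0816. Col6a1 against Col1a1 had the largest shift, from 0.84 ± 0.10 in CON_VD to 0.09 ± 0.07 in DSS_VD and from 0.80 ± 0.13 in CON_CS to -0.13 ± 0.36 in DSS_CS (mean ± SD, n = 4). In each birth the DSS libraries were all below the water libraries (exact permutation p = 0.0286 for both).

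Col1a1 against Col1a2, the 2 chains of one trimer, shifted less, and upward under DSS in both births. The log2 ratio was 0.20 ± 0.06 in CON_VD, 0.24 ± 0.13 in CON_CS, 0.27 ± 0.02 in DSS_VD and 0.47 ± 0.10 in DSS_CS. The ranges were apart for DSS in each birth and between the births under DSS (exact permutation p = 0.0286 each). Col4a1 against Col4a2 was at 0.41 ± 0.02, 0.34 ± 0.06, 0.49 ± 0.03 and 0.42 ± 0.11 in the same order of groups, and parted in VD mice under DSS (difference 0.08, p = 0.0286 by the exact test). Col4a1 against Col1a1 went from 0.18 ± 0.04 to 0.56 ± 0.15 in VD mice (exact permutation p = 0.0286). In CS mice it went from 0.09 ± 0.06 to 0.50 ± 0.38, where DSS_CS replicate 1 at 0.09 lay among the water libraries (exact permutation p = 0.0857). Col3a1 against Col1a1 overlapped in all 4 comparisons, with group means between 1.754 and 1.999.

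**Figure D4:**
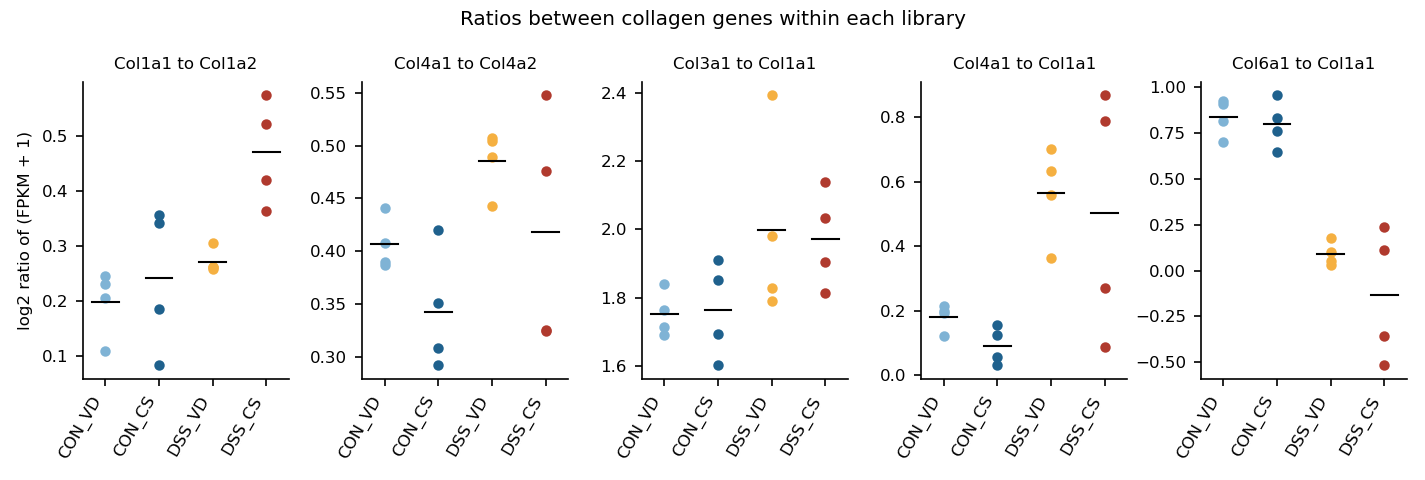
Points give the log2 ratio of (FPKM + 1) of 2 collagen genes in each library, by group, and bars give group means. The ratio of Col6a1 to Col1a1 is at 0.64 or more in every water library and at 0.24 or less in every DSS library.

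Within DSS, collagen genes stood higher in the CS mice than in the VD mice, with group means 1.76 to 2.17 times as high for the 12 most abundant of them. Of 24 tested, 12 were called higher and none lower, where 7.89% of all 14313 tested genes were called higher and 5.54% lower. The median log2 difference was 0.91, against 0.06 over all tested genes. With median-of-ratios scaling the calls over all genes split into 791 higher and 885 lower in place of 1130 and 793, and 11 collagen genes were called. The values of 16 collagen genes did not overlap between the groups, all higher in DSS_CS, where 15.3% of all tested genes were apart in that direction.

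By class, 5 of 7 fibrillar genes, 2 of 3 basement membrane genes and 5 of 14 others were called, with median log2 differences of 1.06, 1.07 and 0.69. The largest called differences were those of Col5a3 (1.25 ± 0.25, limma adjusted p = 0.0313), Col4a2 (1.14 ± 0.26, 0.0354), Col1a1 (1.13 ± 0.21, 0.0313) and Col3a1 (1.10 ± 0.28, 0.0405). In all 4 the lowest DSS_CS library was above the highest DSS_VD library. Col4a1, Col5a1, Col16a1, Col1a2, Col6a3, Col14a1, Col6a2 and Col28a1 were the others called, at 0.64 to 1.07. Just above the threshold were Col6a1 (0.91 ± 0.26, adjusted p = 0.0517) and Col5a2 (0.85 ± 0.24, 0.0519). Col18a1, the most raised gene under DSS, was at 1.04 ± 0.37 and was not called (adjusted p = 0.0881), with DSS_CS replicate 1 inside the DSS_VD range.

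The calls between the births under DSS rested on single libraries, while the sizes did not. The count of 12 went to 0 without DSS_CS replicate 2, without DSS_CS replicate 3 and without DSS_VD replicate 1, to 1 without DSS_VD replicate 2, to 4 without DSS_CS replicate 4 and to 5 without DSS_VD replicate 4. Calls over all genes went from 1923 to 57, 1, 0, 51, 639 and 604 in the same order, so the loss was not particular to collagen genes. The collagen count was 9 without DSS_VD replicate 3 and 13 without DSS_CS replicate 1, where 1438 and 2054 genes were called over all genes. It was also 0 without both DSS_CS libraries with prostate genes and 0 with no filter on low genes, where 6 and 3 genes were called over all genes. It was 19 when all 4 groups were fitted together, where 16.8% of all genes were called higher. The median log2 difference of the tested collagen genes lay between 0.68 and 0.96 over the sets with 1 library left out, and was 0.77 without the libraries with prostate genes. Unadjusted p was under 0.05 for 19 of the 24 genes, against 32.8% of all tested genes. It was under 0.05 for 12 without the libraries with prostate genes, against 22.7% of all genes, and for 16 to 20 with any 1 library left out, against 24.9 to 33.0%.

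On water, no collagen gene was called between CON_CS and CON_VD by limma, where 0.181% of 13275 tested genes were higher and 0.226% lower. All 23 tested collagen genes were above 0, as were 55.9% of all tested genes, with log2 differences of 0.00 to 0.37 and a median of 0.18, against 0.03 over all tested genes. Unadjusted p was under 0.05 for 3 of the 23, Col20a1, Col14a1 and Col8a1, and for 19.6% of all tested genes, so that share of the collagen genes was not above the background. The lowest adjusted p was 0.142, for Col20a1 (0.37 ± 0.11). Col20a1 and Col15a1, named here after their values were seen, had ranges that did not overlap, higher in CON_CS, where 6.31% of all tested genes did so. Col3a1 differed by 0.22 ± 0.11 and Col4a1 by 0.12 ± 0.12. The count of calls was 0 in every alternative run. Col16a1, at 0.02 ± 0.15, had a sign that turned with the scaling.

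Whether DSS raised collagen genes more in CS than in VD mice was tested as an interaction over all 16 libraries. Of 25 tested collagen genes, 4 rose more in CS mice and none less, where 6.68% of 15233 tested genes were called higher and 6.55% lower. They were Col16a1 (additional log2 difference 0.96 ± 0.25, limma adjusted p = 0.0235), Col5a3 (0.96 ± 0.29, 0.0436), Col1a1 (0.92 ± 0.25, 0.03) and Col28a1 (0.54 ± 0.13, 0.0211). The median over the 25 was 0.62, against 0.04 over all tested genes. Col4a1 and Col4a2 had values of the same size (0.95 ± 0.30 and 0.96 ± 0.31) and adjusted p of 0.0504 and 0.0534, so that the call does not separate them from the 4 genes. Col20a1 and Col6a4 were below 0, at -0.34 and -0.17, and neither was called.

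The 4 calls differed in how they held. Without the libraries with prostate genes 1 collagen gene was called, Col16a1, where 3.06% of all genes were called higher. The limma adjusted p of Col28a1, Col1a1 and Col5a3 were then 0.0628, 0.0775 and 0.128. The count was 2 without CON_CS replicate 2, 3 or 4, without CON_VD replicate 3 and without DSS_CS replicate 2 or 3. Calls over all genes were then 1389, 1238, 1311, 1096, 1056 and 1181 in the same order, in place of 2015. The collagen count was 8 without DSS_VD replicate 3 and 9 without DSS_CS replicate 1, with 2283 and 2515 calls over all genes. It was 8 with median-of-ratios scaling and with quantile normalization, where 6.92 and 7.94% of all genes were called higher. With no filter it was 1, where 1.64% were. Col16a1 and Col28a1 were called with any 1 library left out.

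The summed fibroblast, vessel and enteric neuron markers rose under DSS, as collagen genes did, with the highest sums in DSS_CS. Over all tested genes, 24% rose and 17% fell under DSS in VD mice, and 34.4% rose and 25.9% fell in CS mice. Between the births under DSS, 7.89% were called higher and 5.54% lower. The counts of markers and of the lists after them stand beside these shares. The 8 fibroblast markers, among them Pdgfra and Thy1, summed to 89.5 to 106 FPKM in CON_VD and 102 to 121 in CON_CS, against 146 to 281 in DSS_VD and 324 to 403 in DSS_CS, and none was at 0 in a whole group. Of 7 tested, 6 rose under DSS in VD mice and 7 in CS mice. The 8 endothelial markers, among them Pecam1 and Cdh5, summed to 16.5 to 20.4, 19.1 to 24.4, 36.2 to 68.2 and 74.2 to 102 FPKM in the same order of groups, and all 8 rose in both births. The lowest DSS_VD sum of both lists was that of replicate 2, also the DSS_VD library of lowest collagen share and highest epithelial sum. Between the births under DSS 3 of 8 fibroblast markers and 1 of 8 endothelial markers were called higher, against 7.89% of all tested genes.

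The 7 enteric neuron markers, among them Vip and Tubb3, summed to 16.2 to 27.7 FPKM in CON_VD, 12.3 to 19.3 in CON_CS, 40.7 to 59.3 in DSS_VD and 75.8 to 172 in DSS_CS, so that the DSS groups did not overlap with water or with each other. On water their mean sum was 22.3 FPKM in CON_VD and 14.6 in CON_CS, an order opposite to that of the collagen share. Under DSS 4 of 5 tested rose in VD mice and 6 of 6 in CS mice, and 3 of 6 were called higher in DSS_CS than in DSS_VD. In the interaction 5 of 6 were called higher, Tubb3, Vip, Uchl1, Elavl4 and Nos1, against 4 of 25 collagen genes and 6.68% of all tested genes. The 6 enteric glia markers, among them Gfap and Sox10, summed to 1.997 to 4.086, 2.33 to 3.10, 7.38 to 8.98 and 11.1 to 23.2 FPKM in the same order of groups. The 1 tested in VD mice and 3 of 4 in CS mice rose, and none was called between the births under DSS or in the interaction. No neuron or glia marker was at 0 in a whole group.

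The 8 smooth muscle markers did not rise as those lists did, and none was called higher under DSS in either birth. They summed to 779 to 1279 FPKM in CON_VD, 829 to 1161 in CON_CS, 403 to 535 in DSS_VD and 460 to 1197 in DSS_CS. Of 7 tested, 6 fell in VD mice, where 17% of all tested genes fell. In CS mice 2 of 8 fell, near the 25.9% of all tested genes that fell there. Between the births under DSS none of the 8 was called. All 8 were higher in DSS_CS, at log2 differences of 0.41 to 0.74. Their median of 0.65 stood beside 0.65 for the fibroblast and 0.56 for the endothelial markers. The 5 mesothelium markers summed to at most 9.58 FPKM and the 6 skeletal muscle markers to at most 11.6 FPKM in any library. In whole tissue, more cells of a type and more RNA per cell cannot be told apart, and the part of the cell makeup in the collagen differences was not tested.

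**Figure D5:**
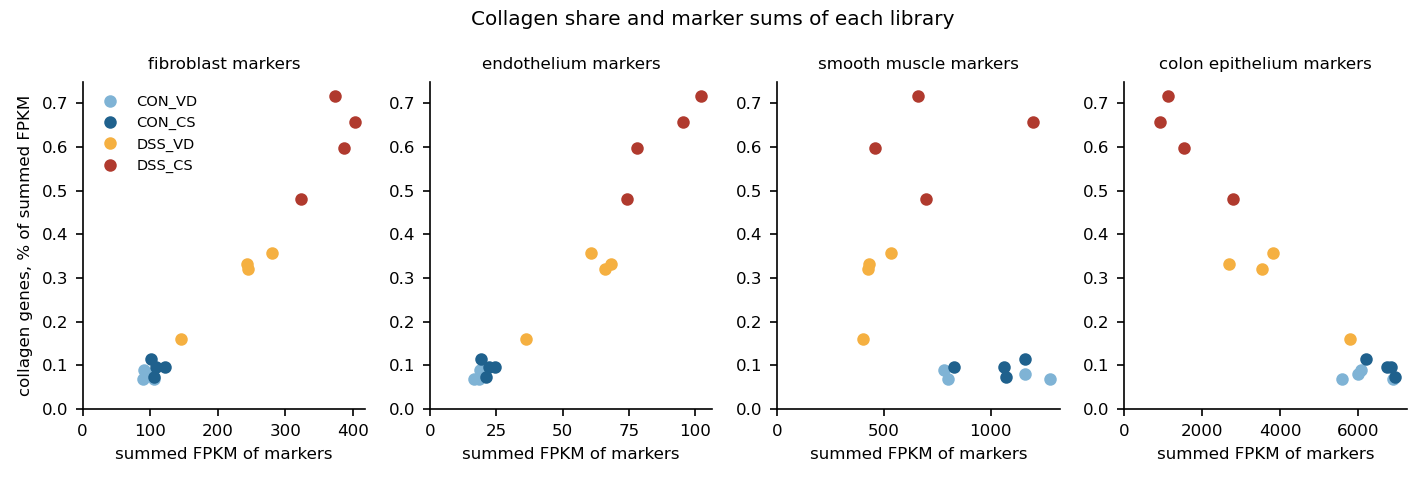
Points are the 16 libraries, coloured by group. The vertical axis gives the share of collagen genes in the summed FPKM in percent, and the horizontal axes give the summed FPKM of 8 fibroblast, 8 endothelial, 8 smooth muscle and 10 colon epithelium markers. DSS_VD replicate 2, at 0.160%, lies between the water libraries and the other DSS libraries for fibroblast and endothelial markers.

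The genes that fold, process and cross-link procollagen rose with the chains. Of the 32 listed, 19 of 24 tested rose in VD mice and none fell, with a median log2 difference of 0.92. In CS mice 25 of 27 rose and 1 fell, with a median of 1.52, the faller being Mia2 (-0.38 ± 0.11), which helps to load large cargo at the endoplasmic reticulum. Lox, the lysyl oxidase that starts cross-linking, went from 1.22 ± 0.0617 to 12.9 ± 3.42 FPKM in VD mice and from 1.55 ± 0.216 to 32.7 ± 2.48 in CS mice. Loxl1, its relative, rose by a log2 difference of 1.62 ± 0.17 and Fkbp10, a helper of lysine hydroxylation in type I chains, by 1.59 ± 0.18 in VD mice. In CS mice Pcolce, the enhancer of C-propeptide removal, rose by 2.06 ± 0.09, and P3h3, of the proline 3-hydroxylase family, by 2.03 ± 0.10. Between the births under DSS, 19 of 27 were called higher and none lower (median 0.66), with Lox at 1.31 ± 0.18, P4ha1, a proline 4-hydroxylase subunit, at 0.59 ± 0.10 and Bmp1, the C-proteinase, at 1.06 ± 0.19. That comparison's calls over all genes fell to 6 without the libraries with prostate genes.

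Collagen receptors rose in 4 of 6 tested in VD mice and 6 of 7 in CS mice, with medians of 0.77 and 1.23. Ddr2, a receptor kinase for fibrillar collagen, rose by 1.55 ± 0.16 and 2.21 ± 0.14, Mrc2, which takes up collagen fragments, by 1.72 ± 0.18 and 2.31 ± 0.13, and Itgb1, the β1 integrin, by 0.84 ± 0.12 and 1.51 ± 0.12. Between the births under DSS 3 of 7 were called higher.

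Partners of type IV collagen in the basement membrane rose in 11 of 15 tested in VD mice (median 1.34) and 12 of 15 in CS mice (median 1.62). Lamb3, a laminin chain of epithelia, was at 15.6 ± 1.23 and 17.3 ± 8.10 FPKM in CON_VD and DSS_VD and fell in CS mice from 16.5 ± 1.11 to 10.0 ± 5.24. Nid1 and Nid2, the nidogens that link laminin to type IV collagen, rose by 2.23 ± 0.15 and 2.35 ± 0.20 in CS mice.

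Of the small leucine-rich proteoglycans that bind fibrils, 4 of 6 rose and 1 fell in VD mice, and 5 rose and 1 fell in CS mice. Dcn went from 35.5 ± 3.74 to 155 ± 42.5 FPKM in VD mice and from 42.3 ± 4.13 to 314 ± 73.1 in CS mice, and Bgn rose by 2.004 ± 0.19 and 2.41 ± 0.09. The faller was Ogn in both births, by -0.98 ± 0.21 and -0.90 ± 0.12. Lum, counted here, is also 1 of the fibroblast markers above.

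Genes of collagen breakdown and its inhibitors all rose, 9 of 9 tested in VD mice and 10 of 10 in CS mice. Mmp3, a stromelysin, rose by log2 differences of 6.39 ± 0.26 and 7.52 ± 0.23, and Mmp13, a collagenase that cuts fibrils, by 4.70 ± 0.26 and 6.20 ± 0.16. Timp1, an inhibitor of these enzymes, rose by 4.04 ± 0.18 and 5.65 ± 0.22. Of 14 fibrogenic ligands and receptors, 10 of 12 tested rose in VD mice and 11 of 13 in CS mice, where Pdgfa fell (-0.41 ± 0.13). Il11, a cytokine that acts on fibroblasts, rose by 5.06 ± 0.35 and 6.58 ± 0.36, and Pdgfra, also 1 of the fibroblast markers, by 1.79 ± 0.23 and 2.11 ± 0.11. On water no member of these 6 lists was called between the births by limma.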

How the data were processed

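Per the labels' protocols, Trizol was used to extract total RNA from colon. The authors deposited 1 table of FPKM for 39328 genes in 16 libraries. The submitters' processing notes name cutadapt, FastQC and the build GRCm38 without versions. The aligner, quantifier and annotation they used were not given in the sources used here. No read counts were used, so depth is unknown and the number of libraries limits the precision. The FPKM of a library summed to between 280135 and 343423, with 24150 to 26328 genes at values over 0. No libraries had identical values.

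Groups and replicate numbers came from the labels. Symbols came from a table of gene names (39181 identifiers matched, 147 did not), positions from GENCODE M21 and promoters from RefSeq on GRCm38.p6. The collagen genes, their classes and the other gene lists were chosen with earlier results of these data known. Named with values in every library were the 12 collagen genes of highest mean and the 4 largest called changes of each comparison, plus Col4a5 and Col8a2, added after their values were seen. From other lists up to 3 genes of smallest p were named, except 1 that is not reported here.

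limma 3.58.1 in R 4.3.3 was run on log2(FPKM + 1) with an intensity trend, two-sided, with Benjamini-Hochberg adjustment over all genes with FPKM of at least 1 in at least 4 fitted libraries. Each comparison used its own 8 libraries and the interaction all 16. The fit was tested on simulated data. Ratios were compared by exact permutation tests in scipy 1.17.1. Figures used matplotlib 3.10.9. Alternatives were a pseudocount of 0.1, no filter, a filter at FPKM 5, other scalings, no intensity trend, a replicate block, 1 fit on all groups, and leaving out libraries. In all, 10 collagen genes overlap an opposite-strand gene in exons and 3 a gene of the same strand, and how shared reads were assigned is not given.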

Additional observations from a re-analysis of the deposited data

Results flagged for a closer look

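In 9 of 116 groups of 4 libraries 1 library lay far from the other 3 in a collagen gene. For independent, normally spread values about 1 in 20 would do so. The groups are not independent, since the genes were measured in the same 16 libraries, so the count cannot be judged against that rate. In DSS_VD, replicate 2 was low for Col6a1 (43.9 FPKM), Col5a1 (14.5 FPKM) and Col15a1 (6.08 FPKM). The same library had the highest epithelial and lowest fibroblast and endothelial marker sums of its group, and the part of these in its collagen values was not tested. In CON_VD, replicate 2 was low for Col1a2 (13.7 FPKM) and Col23a1 (0.573 FPKM), replicate 4 was high for Col16a1 (6.14 FPKM) and replicate 1 was low for Col15a1 (3.19 FPKM). DSS_CS replicate 4, which has the most RNA of prostate genes, was high for Col1a1 (170.1 FPKM), and CON_CS replicate 3 was high for Col8a2 (1.12 FPKM).

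The response to DSS differed between births in the interaction test for 4 collagen genes, each higher in CS mice. The additional log2 difference was 0.92 for Col1a1, 0.96 for Col16a1, 0.96 for Col5a3 and 0.54 for Col28a1.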

How the results depend on the processing

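For the 12 collagen genes of highest mean, Col5a3 and Col28a1, the rise under DSS kept its direction in each alternative run. Calls in either direction numbered 14 to 22 in VD mice (17 to 20 with 1 library left out) and 17 to 30 in CS mice (19 to 21). Without the libraries with prostate genes the CS count was 18. The counts of 22 and 30, with no filter, each include 1 gene called lower, Col8a2. With quantile normalization Col4a5 was called lower in VD mice, and its uncalled value in CS mice changed sign. Between the births under DSS the count of 12 became 0 with no filter, 0 without the libraries with prostate genes and 19 in 1 fit on all groups, and ranged from 0 to 13 with 1 library left out. Calls over all genes went from 1923 to 3, 6 and 3855 in the same order, and ranged from 0 to 2054 with 1 library left out. The interaction count of 4 became 1 with no filter, 8 with median-of-ratios scaling, 8 with quantile normalization and 1 without the libraries with prostate genes, and ranged from 2 to 9 with 1 library left out. Calls over all genes went from 2015 to 1042, 2068, 2423 and 637 in the same order of settings. Apart from fewer genes or libraries in the fit, the cause was not tested. On water the count was 0 throughout, and 0 to 275 genes were called over all genes.

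Replicate numbers did not pair the libraries: deviations of same-numbered libraries correlated between -0.28 and 0.13, and 1 of 16 matched its own number best. With the replicate block the counts were 18, 21, 0 between the births under DSS and 3 for the interaction. Calls over all genes were then 5221, 8247, 2 and 1520.

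Signs turned for small values that no setting called. Col16a1 on water was at -0.0192 with median-of-ratios scaling, -0.00675 with quantile normalization and -0.0871 without the libraries with prostate genes, and between -0.0871 and 0.143 with 1 library left out. The log2 ratio of Col4a1 to Col4a2 for DSS in CS mice was -0.0291 without the libraries with prostate genes, and that of Col6a1 to Col1a1 on water was 0.0130, ranging from -0.0913 to 0.0130 with 1 library left out. The ratio of Col3a1 to Col1a1 ranged from -0.0949 to 0.105 between the births under DSS and from -0.0366 to 0.0657 on water, and that of Col4a1 to Col1a1 from -0.182 to 0.0780 under DSS. Leaving out 1 library puts the smallest exact p of a ratio at 0.0571. FPKM without depth gives no counting error, which limits what can be said of genes under FPKM 1.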
